A study of Physcomitrium patens with 6 samples.

Results

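Progressive risers are genes within a moderate range of abundance in protonema of the moss Physcomitrium patens under abscisic acid (ABA). Their read level, scaled between libraries, at least doubled during the first 30 minutes of ABA treatment. It at least doubled again between 30 and 60 minutes. They were chosen from the measured values themselves. Levels are read counts relative to the library total (CPM) scaled by TMM (trimmed mean of M values, a factor that sets the bulk of genes equal between libraries). On means of the 2 libraries of a time, members had from 0.5 to below 100 CPM at 0 minutes, from 5 to below 300 CPM at 60 minutes, a 30 over 0 minute ratio of at least 2 and a 60 over 30 minute ratio of at least 2. This rule selected 206 of 32926 gene IDs. All 206 members passed the filter on low counts, which left 18949 genes for testing.

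The study compared 3 groups of 2 biological replicates, cultures of 0, 30 and 60 minutes of ABA, 6 libraries in all. Tissue of 10 days was sonicated, grown for 3 days in shaken liquid medium and then given ABA, or the same volume of methanol in the controls. The series design gives the ABA concentration as 10 µM and the treatment protocol as 10 mM, and the labels do not settle which holds. No strain, genotype or pooling of cultures is given in the labels, and the time between methanol and harvest of the 0 minute cultures is not stated either, so ABA and time after an addition cannot be told apart.

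Protonema is the filamentous juvenile tissue of a moss. In land plants, ABA binds soluble receptors that inhibit protein phosphatases, which frees protein kinases to activate transcription factors of the bZIP family, and in moss protonema the hormone is known for inducing tolerance to drying and freezing. Genes induced by ABA in plants include protective proteins, transport proteins and regulators. The count files do not pair gene IDs with names, and 0 of the 32926 IDs matched an entry among 27567 RefSeq genes. The members therefore have no names or roles here, no sequence is shown, and the labelled tissue could not be checked against marker genes. Only 2 IDs are printed, and other members are described by their rank. CPM is not divided by transcript length, so an order of members by CPM, as in the level windows of the rule, is an order of read counts and not of transcript abundance.

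The libraries held between 12450250 and 17822775 reads in genes. Among members, the lowest count was 7 reads in any 0 minute library, 24 in any 30 minute library and 50 in any 60 minute library. The median member had 122 reads over both 0 minute libraries together, and 46 of 206 members had under 50. No member had a count of 0 in a 0 minute library. A ratio to 0 minutes is thus resolved by few reads for the members that started lowest.

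The members together took 0.179% and 0.180% of the gene counts in the libraries at 0 minutes. They took 0.813% and 0.821% at 30 minutes and 1.61% and 1.71% at 60 minutes. The means were 0.180% ± 0.00041, 0.817% ± 0.0056 and 1.66% ± 0.068 (SD, n = 2). The 3 times did not overlap, and the later libraries of this group were higher at each step, as the choice of members fixes. In whole cultures, a change in the number of cells that express a gene and a change in RNA per cell cannot be told apart.

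The median member stood at 3.13 and 3.08 CPM in the 0 minute libraries, at 29.4 and 29.8 CPM in the 30 minute libraries and at 66.5 and 71.5 CPM in the 60 minute libraries. Across members the mean level ran from 0.506 to 62.2 CPM at 0 minutes, from 1.96 to 146 CPM at 30 minutes and from 5.42 to 299 CPM at 60 minutes. The median ratio was 4.66 for 30 over 0 minutes (quartiles 2.77 and 9.99, highest 105). It was 2.44 for 60 over 30 minutes (quartiles 2.20 and 3.15, highest 6.49). Over the whole hour the median ratio was 11.8, with a range from 4.19 to 427. The first step was thus spread far more widely among members than the second, both as described by values that chose the members.

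**Figure D1:**
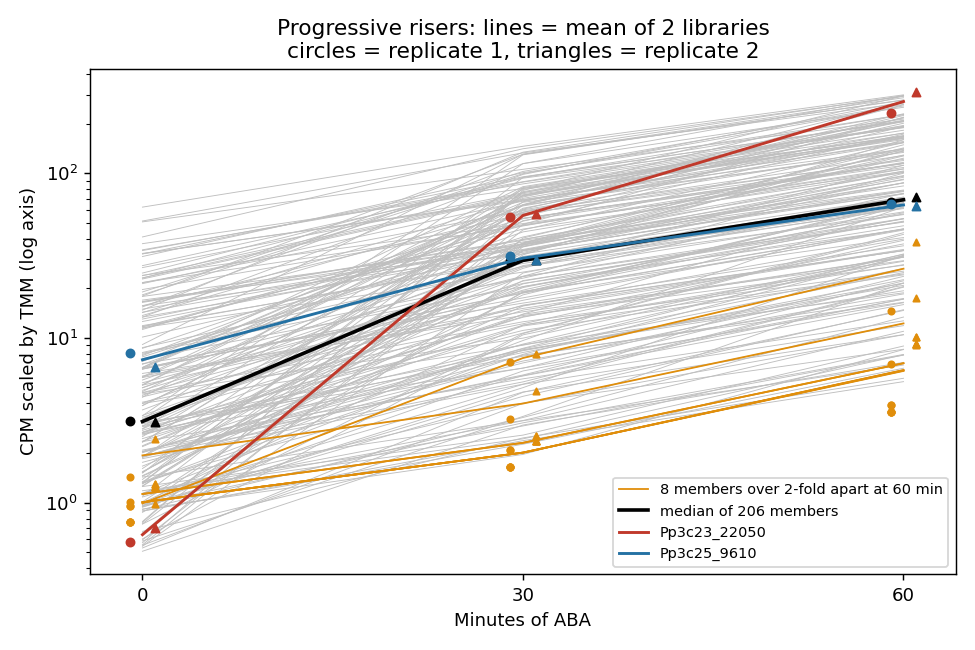
CPM scaled by TMM on a log axis against minutes of ABA for the 206 members. Grey lines are the means of 2 libraries for each member, the black line joins the means of the per-library member medians (3.13 and 3.08 CPM at 0 minutes, 66.5 and 71.5 at 60 minutes), red and blue mark the 2 genes named in the text, orange marks 8 members whose 60 minute libraries lay over 2-fold apart, and circles and triangles are replicates 1 and 2.

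The member with the largest ratio over the hour was Pp3c23_22050. Its level was 0.573 and 0.704 CPM at 0 minutes, 54.0 and 56.8 CPM at 30 minutes and 232 and 313 CPM at 60 minutes. It went from near the lower limit of the 0 minute window to near the upper limit of the 60 minute window. The 2 libraries of each time lay apart from those of the other times. The means were 0.638 ± 0.0923, 55.4 ± 2.02 and 272 ± 57.8 CPM (SD, n = 2). The log2 fold change fitted by edgeR was 6.43 (SE 0.23) for the first step and 2.30 (SE 0.15) for the second. Only 25 reads were counted over both 0 minute libraries, against 1727 at 30 minutes and 7623 at 60 minutes. The ratio of pooled reads over the hour was 429 with an exact 95% counting interval from 290 to 663, which covers counting error only.

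Pp3c25_9610 lay nearest to the member medians of the first ratio, the second ratio and the 60 minute level. Its level was 8.07 and 6.66 CPM at 0 minutes, 31.4 and 29.6 CPM at 30 minutes and 64.9 and 63.4 CPM at 60 minutes. The 2 libraries of a time were close to each other at 30 and 60 minutes, and no time overlapped another. Its fitted log2 fold change was 2.05 (SE 0.13) for the first step and 1.07 (SE 0.12) for the second. The counting interval of the pooled ratio was 3.63 to 4.73 for the first step and 1.93 to 2.27 for the second. The second interval includes the limit of 2 that the rule sets.

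Behind Pp3c23_22050, the next 5 members by ratio over the hour went from means of 0.554 to 0.758 CPM at 0 minutes to means of 140 to 295 CPM at 60 minutes. Each of the 6 had a first ratio of 72.9 to 105 and a second ratio of 2.34 to 4.92. In all, 17 members had a ratio over the hour of at least 100, and each of these had 1.51 CPM or less at 0 minutes and 21 to 59 reads over both 0 minute libraries. Their median level was 0.758 CPM at 0 minutes, 55.4 CPM at 30 minutes and 169 CPM at 60 minutes. Another 33 members had a ratio of 32 to below 100 and went from a median of 1.89 CPM to 36.8 and 112 CPM. For 84 members the ratio was 8 to below 32, with medians of 3.25, 20.4 and 50.8 CPM. The other 72 members had a ratio below 8 and medians of 10.1, 27.7 and 59.6 CPM. The class medians at 0 minutes were thus higher where the ratio was smaller, although the class below 8 also held members with as few as 35 reads over both 0 minute libraries. This order follows in part from the upper limit of 300 CPM at 60 minutes.

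The 6 members nearest the upper limit of 300 CPM at 60 minutes, an order not corrected for length, had unlike ratios. The first was at 63.4 and 61.1 CPM at 0 minutes, 144 and 147 CPM at 30 minutes and 277 and 321 CPM at 60 minutes, a ratio of 4.81 over the hour. The next was at 3.25 and 3.14 CPM, then at 117 and 111 CPM, and at 238 and 354 CPM at 60 minutes, a ratio of 92.7. Both had libraries that did not overlap between times. The other 4 started from 0.758 to 41.0 CPM and ended between 287 and 295 CPM.

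The members were then grouped by their first step. A first ratio of 2 to below 4 was found for 89 members, which had a median of 6.59 CPM at 0 minutes and a median second ratio of 2.34. The 56 members with a first ratio of 4 to below 8 had 3.21 CPM and a second ratio of 2.41. The 41 members with a first ratio of 8 to below 32 had 2.33 CPM and 2.75. The 20 members with a first ratio of 32 or more had 0.857 CPM and 3.02. Members with a larger first ratio had a larger median second ratio and a lower start. Both ratios share the 30 minute libraries and the level windows bound their product, so this order is a description of the chosen genes and was not tested.

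Grouped by start instead, the 31 members from 0.5 to below 1 CPM at 0 minutes had median ratios of 12.0 and then 3.35. The 95 members from 1 to below 5 CPM had 5.88 and 2.59, and the 58 members from 5 to below 20 CPM had 3.63 and 2.29. The 22 members from 20 to below 100 CPM had 2.79 and 2.19, and the highest second ratio among them was 2.70. The limit of 300 CPM at 60 minutes leaves the least room for the last group.

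Members also differed in which step was the larger on the log2 scale. The first step was the larger in 171 members and the second in 35. A median of 62.5% of the log2 rise over the hour had taken place by 30 minutes, with a range from 34.2% to 85.3%. In 90 members the first step exceeded the second by over 1 on the log2 scale, and in 1 member the second exceeded the first by over 1. The steps were within 0.25 of each other in 43 members, which had a median of 11.5 CPM at 0 minutes, 25.1 CPM at 30 minutes and 67.3 CPM at 60 minutes. Without replicate 2 at 60 minutes the second step was the larger in 23 members in place of 35. The number was 24 with gene totals alone and 48 with upper-quartile factors.

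The 35 members with the larger second step had a median of 1.93 CPM at 0 minutes, 5.40 CPM at 30 minutes and 22.2 CPM at 60 minutes. They include 7 low-count IDs that were not called higher at 30 minutes and whose 60 minute libraries lay over 2-fold apart. Of these 7, 6 share their counts with other members, as described below. The member with the largest second step relative to its first was at 0.907 and 0.920 CPM at 0 minutes. It was at 2.08 and 1.84 CPM at 30 minutes and 8.94 and 8.04 CPM at 60 minutes. These levels rest on 19 and 17 reads at 0 minutes and 38 and 24 reads at 30 minutes. The SE of its fitted log2 fold change was 0.27 for the first step. Its first ratio was 2.15 and its second 4.33. The next member in this order was at 3.01 and 3.14 CPM, then at 6.72 and 6.37 CPM. At 60 minutes it was at 24.1 and 23.2 CPM, with ratios of 2.13 and 3.61. In both, the 2 libraries of a time lay close together and the times did not overlap. At the other end, the 4 members with the smallest second step relative to the first had first ratios from 61.4 to 105 and second ratios from 2.07 to 3.75.

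In CPM rather than in folds, the second step was the larger in each member, because 2 successive doublings fix that order. By 30 minutes a median of 33.4% of the CPM gained over the hour had been gained, with a range from 13.1% to 48.6%. For Pp3c23_22050 this share was 20.1%, and for Pp3c25_9610 it was 40.8%. No member had made most of its gain by 30 minutes, as the rule requires.

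**Figure D2:**
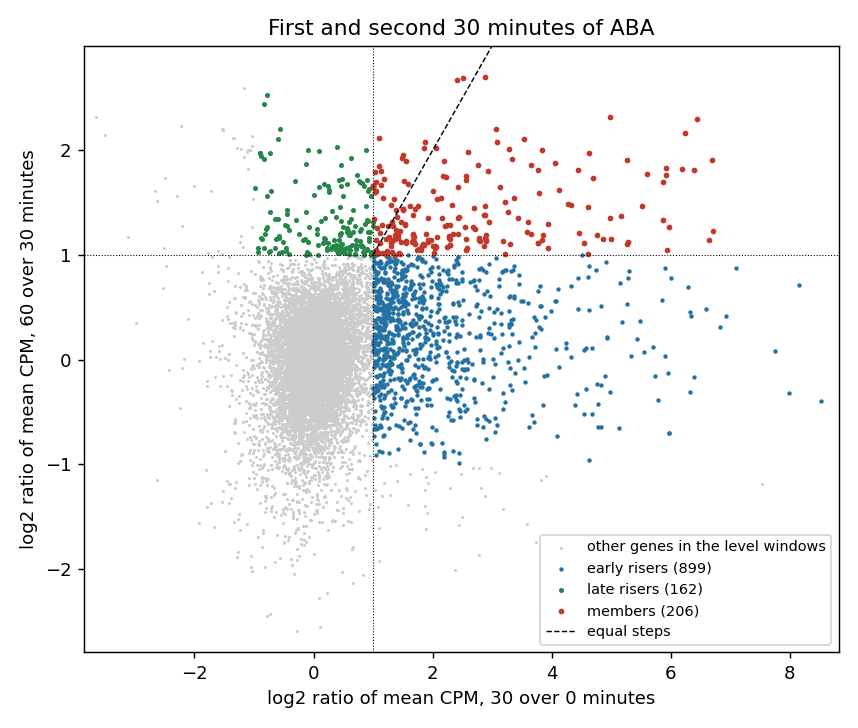
Log2 ratio of mean CPM for 60 over 30 minutes against that for 30 over 0 minutes, for genes within the level windows. The 206 members fill the upper right beyond both dotted lines (ratio of 2), the dashed line marks equal steps, 171 members lie to its right and 35 to its left, and the 899 early risers and 162 late risers lie in the adjoining areas.

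The values around the limits show how the group is cut out of a continuous field. In all, 528 genes with reads at 0 minutes met both ratios. Of these, 173 were below 0.5 CPM at 0 minutes, 144 of the rest reached 300 CPM or more at 60 minutes and 5 stayed below 5 CPM at 60 minutes. Of the 12077 genes inside both level windows, 1145 met the first ratio and 403 met the second. Just inside the limit of the second ratio, members had ratios of 2.005 and 2.009, and just outside it genes had 1.998 and 1.994. At the limit of the first ratio the nearest values were 2.001 inside and 1.990 and 1.989 outside. The nearest levels were 0.506 and 0.530 CPM inside and 0.4998 and 0.493 CPM outside the lower limit at 0 minutes, and 299 and 296 CPM inside and 314 and 315 CPM outside the upper limit at 60 minutes. Second ratios below 2.1 were found in 21 members, while 31 genes that met every other condition had a second ratio from 1.9 to below 2. For the first ratio these numbers were 15 and 10.

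In all 206 members, both libraries of each time lay above both libraries of the time before. Such an order was found in 17.7% of all genes tested, but the members were chosen for it in their means and nothing is read from the contrast. A ratio of at least 2 in every pairing of libraries was found in 185 members for 30 over 0 minutes and in 125 members for 60 over 30 minutes. Both held in 117 members. The lowest ratio of any pairing was 1.32 in the first step and 1.20 in the second.

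In edgeR's quasi-likelihood test, fitted across all genes with Benjamini-Hochberg adjustment, 199 of 206 members were called higher at 30 than at 0 minutes, against 19.6% of all genes. All 206 were called higher at 60 than at 30 minutes, against 17.4% of all genes, and all 206 at 60 than at 0 minutes, against 28.4%. The same libraries chose the members, so these counts describe the rule and support nothing. The median SE of a member's log2 fold change was 0.18 for the first step and 0.14 for the second.

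The 7 members without a call at 30 minutes had low counts that resembled each other. Of these, 4 IDs, 2 with numbers of chromosome 10 and 2 with numbers of chromosome 15, had 16 and 23 reads at 0 minutes, 30 and 31 reads at 30 minutes, and 50 and 126 to 128 reads at 60 minutes. These 4 IDs differed by at most 2 reads in any library. A pair of IDs with numbers of chromosome 24 had 20 and 24 reads, then 38 and 33, and then 55 and 141, the same in both IDs. The seventh, on an unplaced scaffold by its ID, had 30 and 45 reads, 59 and 62 reads, and 98 and 244 reads. All 7 were higher in replicate 2 than in replicate 1 at each time on the CPM scale, and at 60 minutes by over 2-fold. Their first ratios were 2.00 to 2.06, and their adjusted p for 30 versus 0 minutes ran from 0.107 to 0.17 in edgeR's quasi-likelihood test.

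Shared counts were not limited to those IDs. Among members, 10 IDs in 4 sets had counts that agreed within 1 read or 2% in every library with another member. Besides the set of 4 and the pair with 20 and 24 reads, 1 pair had 120 and 133 reads at 0 minutes, 368 and 225 reads at 30 minutes and 659 and 624 reads at 60 minutes, with differences of at most 4 reads. The last pair had 81 and 72 reads, then 1086 and 612, and then 1720 and 1500, with differences of at most 1 read. Same-count IDs made up 4.85% of the members and 4.45% of all genes tested. Among tested genes with a mean count of at least 20, which all 206 members had, they made up 4.10%. The share among members was thus close to that among all genes and slightly above that at this depth. The count files list 0 ambiguous and 0 not uniquely aligned reads, and no source used here states the strand setting. For IDs under the same chromosome number, overlapping gene models and near-identical copies thus cannot be told apart. The set of 4 lies under 2 chromosome numbers, with 2 neighbouring IDs under each. The source of its shared counts was not tested. All of these IDs are uncertain as separate genes. Counting each set once leaves 200 members.

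The rule uses means of 2 libraries, so a high value in 1 library of a time can carry a gene over a limit. Differences between the 2 libraries of a time are thus not independent of the choice of members. At 60 minutes 149 of 206 members (72.3%) were higher in replicate 2, against 50.9% of all genes tested. The median log2 difference, replicate 1 minus replicate 2 on CPM + 0.5, was -0.18 for members and -0.01 for all genes. At 0 minutes 123 members (59.7%) and at 30 minutes 119 members (57.8%) were higher in replicate 2, against 49.3% and 45.9% of all genes. Counting same-count IDs once, 145 of 200 members were higher in replicate 2 at 60 minutes. With upper-quartile factors in place of TMM the number was 146 of 206 (70.9%), against 49.8% of all genes. With gene totals alone it was 114 of 206 (55.3%), against 34.0% of all genes, since a scaling moves all genes of a library alike. The median log2 differences were then -0.04 for members and 0.13 for all genes. Whether the lean at 60 minutes belongs to the culture or to the library was not tested.

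Genes in the same level windows with a different time course gave other values. Early risers, defined here as genes with a first ratio of at least 2 and a second between 0.5 and 2, numbered 899, and 53.9% of them were higher in replicate 2 at 60 minutes. Late risers, with a first ratio between 0.5 and 2 and a second of at least 2, numbered 162, and 42.0% of them were higher in replicate 2. The median log2 difference between the 60 minute libraries was -0.03 for early and 0.07 for late risers. At 0 minutes 44.3% of early and 64.8% of late risers were higher in replicate 2, against 59.7% of members. At 30 minutes the shares were 37.6% and 50%, against 57.8% of members. The differences between these groups and the members were not tested.

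**Figure D3:**
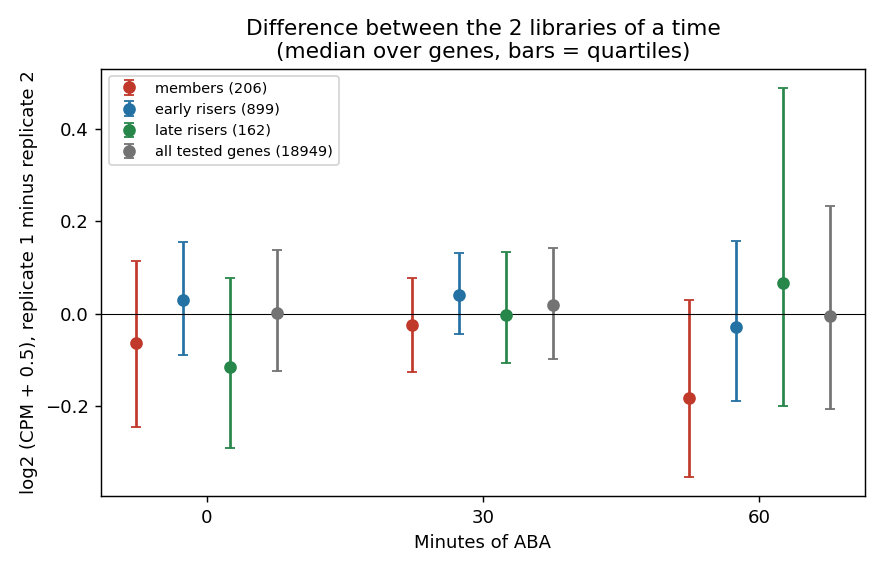
Log2 of CPM + 0.5 in replicate 1 minus replicate 2 at 0, 30 and 60 minutes, as the median over genes with bars from the lower to the upper quartile. At 60 minutes the members have a median of -0.18, the early risers -0.03, the late risers 0.07 and all genes tested -0.01.

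Both ratios were also taken for each pairing of libraries. The means of these same libraries chose the members, so the pairings only describe them. With replicate 2 at 60 minutes as the later library, 189 and 187 members had a ratio of at least 2 over replicates 1 and 2 at 30 minutes, with medians of 2.59 and 2.60. With replicate 1 at 60 minutes the numbers were 167 and 157, with medians of 2.35 and 2.31. In the first step the 4 pairings gave 192 to 202 members and medians of 4.43 to 4.84. The number of members at 2 or more varied more between pairings in the second step. In that step 110 members had a ratio of means from 2 to below 2.5, near the limit.

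Of the 8 members whose 60 minute libraries lay over 2-fold apart, all were higher in replicate 2, and 7 were the low-count IDs without a call at 30 minutes. Libraries this far apart were found in 3.88% of members, 1.38% of all genes tested, 1 of 899 early risers and 22 of 162 late risers. The share among members counts same-count IDs separately, and 6 of the 8 were such IDs. The eighth had 1.003 and 0.974 CPM at 0 minutes, 7.11 and 7.99 CPM at 30 minutes and 14.6 and 38.0 CPM at 60 minutes. Its 60 minute libraries lay above the 30 minute ones but far from each other. The median coefficient of variation between replicates that edgeR fitted for members was 9.62%, against 9.49% over all genes tested, 9.08% in early risers and 10.7% in late risers.

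The size of the group depended on scaling and on the limits. With gene totals alone 96 genes met the rule, 84 of them among the 206 members, and the median log2 ratio of the members for 60 over 30 minutes was 0.97 in place of 1.29. That scaling moved the median log2 ratio of all genes tested from 0.01 to -0.29 for 60 over 30 minutes and from -0.01 to -0.15 for 30 over 0 minutes. Upper-quartile factors gave 163 genes, 151 of them members, and size factors from DESeq2 gave 215, 203 of them members. Whether a gene meets the second ratio is thus relative to the scaling.

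**Figure D4:**
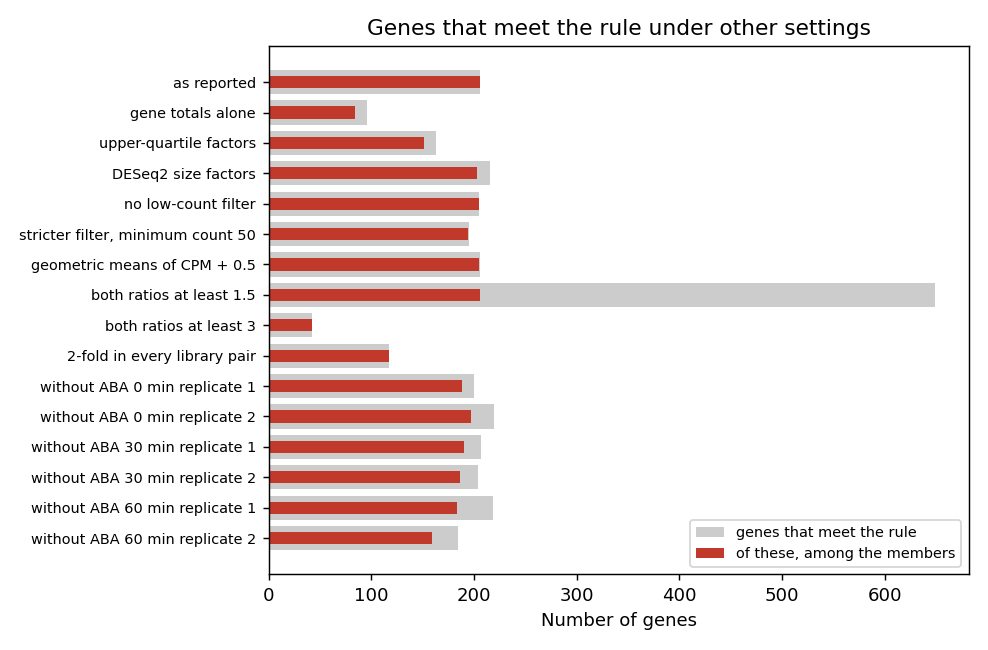
Number of genes that meet the rule as reported (206) and under other settings, in grey, with those among the 206 members in red. The numbers run from 42 with both ratios at least 3 to 649 with both at least 1.5, and from 184 to 219 when 1 library is left out.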

How the data were processed

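Messenger RNA of 6 libraries was sequenced with a stranded kit, per the labels. The authors deposited read counts per gene, 1 table per library; HTSeq, TopHat, cutadapt and DESeq2 appear in the submitters' processing notes with neither version nor role, and no source used here states build, annotation or strand setting. The 5 summary rows of each table, 1.66% to 2.14% of reads, were left out. Counts were filtered with filterByExpr (minimum count 10, minimum total 15), scaled by TMM to CPM and tested with edgeR 4.0.16 in R 4.3.3 (quasi-likelihood F test, 3 group means, all 6 libraries, Benjamini-Hochberg adjusted p below 0.05). SEs of log2 fold changes were derived from F (absolute change over its square root). The common coefficient of variation was 10.0%. The test was checked on simulated counts. Nothing says how far replicates were separate beyond the label "biological". The p-values set differences of group means against the spread between these libraries only, estimated with information from all genes tested. Members, comparison groups and lists were chosen with earlier results of these data known. By the rule for named genes, printed IDs are the member with the largest 60 over 0 minute ratio and the member nearest the member medians (Euclidean distance on log2 values); the highest members at 60 minutes and those with the largest or smallest second step are given by rank. Alternatives were other scalings, filters, limits, DESeq2 1.42.0 and leaving out each library.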

Additional observations from a re-analysis of the deposited data

How the results depend on the processing

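The number of members was 96 with gene totals alone, 649 and 42 with both ratios at least 1.5 or 3, and 117 when every pairing of libraries had to reach 2. It was 184 to 219 with 1 library left out, and 205 and 195 without the filter and with a minimum count of 50. The median log2 ratio of the members for 30 over 0 minutes was 2.22. It was 2.08 with gene totals alone, 1.97 with upper-quartile factors, 2.25 without the 8 members that lay over 2-fold apart at 60 minutes, and 2.18 to 2.25 with 1 library left out. The median log2 ratio for 60 over 30 minutes was 1.29, against 0.97 and 1.19 with those scalings and 1.22 to 1.39 with 1 library left out. The number of members with the larger second step was 35. It was 23 to 40 with 1 library left out, 24 with gene totals alone and 48 with upper-quartile factors. Stricter or looser limits change the number by construction, and a scaling multiplies all genes of a library alike. The cause of the other shifts was not tested. Replicate numbers are shared between times. Deviations of same-numbered libraries correlated across genes with r of -0.06 (0 and 30 minutes), 0.02 (0 and 60) and 0.26 (30 and 60). The main test did not treat libraries as pairs, although same-numbered libraries at 30 and 60 minutes deviated in part alike. With the replicate block 206 members were called higher at 30 than at 0 minutes in place of 199, and 206 in the other comparisons. The counts of calls stayed between 193 and 206 in each alternative. At 20 reads over both 0 minute libraries, the lowest member, depth limits ratios to 0 minutes.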

Other observations

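Gene IDs of this moss carry the number of the chromosome and a running number, which the rule did not use. Members fell under each of the 27 chromosome numbers, from 2 members under number 12 to 15 under number 9, and 1 member was on a scaffold. As a share of the genes tested they made up 0.31% under number 12 and 2.11% under number 9, against 1.09% over all. In ID order, 6 pairs of members were direct neighbours, and 5 of these pairs had the same counts within 1 read or 2%. The members of the remaining pair had 7.89 and 8.92 CPM at 60 minutes and ratios of 6.69 and 7.13 over the hour.

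Direct ID neighbours that were not members themselves included 265 tested genes. Of these, 97 (36.6%) were called higher at 60 than at 0 minutes by edgeR at an adjusted p below 0.05, against 28.4% of all genes tested. Their median log2 ratio over the hour, on CPM + 0.5, was 0.07, against -0.04 over all genes tested. A rise of at least 2-fold was found in 17.4% of them and in 12.4% of all genes. The difference was not tested, and reads shared between overlapping neighbours cannot be told apart here.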
